A study of Mus musculus with 12 samples.

Results

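Metallothioneins and zinc transporters were followed as 10 named genes in a table of 41743 genes from mouse hippocampus. The genes were chosen by symbol: the metallothioneins Mt1, Mt2 and Mt3, the metal-sensing transcription factor Mtf1, the zinc and manganese exporters Slc30a1, Slc30a3 and Slc30a10, and the importers Slc39a10, Slc39a12 and Slc39a14. Each symbol matched 1 row. The control group held hippocampi of C57Bl/6 males given vehicle. The toxicant group held hippocampi of C57Bl/6 males given a subcutaneous mixture on weekdays over 2 weeks, with 2.5 mg/kg of pyridostigmine bromide (a reversible cholinesterase inhibitor), 12.5 mg/kg of chlorpyrifos (an organophosphate insecticide) and 7.5 mg/kg of the insect repellent DEET. The labels give an age of 12 weeks for all animals, and tissue was taken when dosing stopped. No group carried only 1 of the 3 chemicals, so their parts cannot be told apart. The comparison asks which of these metal-handling transcripts differ between mixture and vehicle.

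Metallothioneins are small cysteine-rich proteins that bind zinc and copper and buffer free zinc in the cell. Mt1 and Mt2 are made in most tissues, in brain mainly in astrocytes, and are induced by metals, glucocorticoids and oxidative stress, whereas Mt3 is the brain form. When free zinc rises, MTF1 binds metal response elements in promoters and raises Mt1, Mt2 and the exporter Slc30a1. Members of the Slc30 (ZnT) family move zinc out of the cytosol, and members of the Slc39 (ZIP) family move it in. In the hippocampus, Slc30a3 (ZnT3) loads zinc into glutamate vesicles, above all those of the mossy fibres.

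Mt1, Mt2 and Mt3 lie next to each other on the plus strand of chromosome 8. In GENCODE M21 (GRCm38), Mt3 (ENSMUSG00000031760) runs from 94152607 to 94154146, Mt2 (ENSMUSG00000031762) from 94172664 to 94173568 and Mt1 (ENSMUSG00000031765) from 94179082 to 94180327. The 250 bases before each RefSeq start (GRCm38.p6, plus strand) are shown because the 3 genes varied together across animals (given further on) and because Mt1 and Mt2 are textbook targets of MTF1. Capitals mark matches to the core of the metal response element, spelled TGCACNC or TGCGCNC, searched on both strands.
Mt1, chr8:94178839-94179088: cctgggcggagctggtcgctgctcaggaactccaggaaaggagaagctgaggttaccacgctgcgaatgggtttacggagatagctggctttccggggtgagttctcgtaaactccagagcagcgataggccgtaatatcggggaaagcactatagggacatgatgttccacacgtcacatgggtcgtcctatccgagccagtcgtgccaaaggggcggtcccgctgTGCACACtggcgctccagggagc
Mt2, chr8:94172368-94172617: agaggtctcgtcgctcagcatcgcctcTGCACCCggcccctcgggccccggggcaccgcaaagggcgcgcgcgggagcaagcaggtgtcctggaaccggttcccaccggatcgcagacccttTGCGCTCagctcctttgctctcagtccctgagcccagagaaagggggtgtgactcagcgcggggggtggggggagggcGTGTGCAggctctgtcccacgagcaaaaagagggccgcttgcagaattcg
Mt3, chr8:94152357-94152606: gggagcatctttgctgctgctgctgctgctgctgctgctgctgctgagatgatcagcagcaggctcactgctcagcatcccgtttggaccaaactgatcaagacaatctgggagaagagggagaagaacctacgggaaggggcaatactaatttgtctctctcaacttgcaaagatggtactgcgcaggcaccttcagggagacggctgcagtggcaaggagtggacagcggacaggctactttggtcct
Mt1, chr8:94179089-94179117, a stretch of 29 bases right after its RefSeq start: tcTGCACTCcgcccgaaaagTGCGCTCgg

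Over the full windows of 300 bases (250 before and 50 after the RefSeq start), Mt2 held 4 matches, Mt1 held 3 and Mt3 held 1. The fourth of Mt2 and that of Mt3 lie after the start and are not printed. Slc30a10 held 3, of which a pair on opposite strands overlap. Slc30a1 held 2, and Slc30a3 held 1 in the first of its 2 windows and 0 in the other. None lay in the windows of Mtf1, Slc39a10 (2 windows) or Slc39a12. The windows of Mtf1 (RefSeq start 124802549) and of Slc39a10 (46925776 and 46853618, minus strand) do not hold the GENCODE starts, 124802104 and 46892852. For these genes the absence holds for the RefSeq windows only. The table of promoters matched 9 of the 10 genes. Of all 32851 windows in it, 25.7% held at least 1 match, 7.11% at least 2 and 1.97% at least 3. A match describes the letters of the window and does not show a bound site. Whether the matches bear on the shared variation of the 3 metallothioneins was not tested.

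The other genes lie apart from this cluster in the same annotation. Mtf1 (ENSMUSG00000028890) lies on chromosome 4 from 124802104 to 124849800, plus strand. Of the exporters, Slc30a1 (ENSMUSG00000037434) is on chromosome 1 from 191906767 to 191913247, plus strand, Slc30a3 (ENSMUSG00000029151) is on chromosome 5 from 31086106 to 31108237, minus strand, and Slc30a10 (ENSMUSG00000026614) is on chromosome 1 from 185454848 to 185468762, plus strand. Of the importers, Slc39a10 (ENSMUSG00000025986) is on chromosome 1 from 46807544 to 46892852, minus strand, Slc39a12 (ENSMUSG00000036949) is on chromosome 2 from 14388316 to 14494977, plus strand, and Slc39a14 (ENSMUSG00000022094) is on chromosome 14 from 70303469 to 70351425, minus strand.

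The 12 columns held 11 distinct libraries. Controls 4 and 5 held the same value for every gene. Being identical, they were counted as 1 sample, control 4-5, which left 5 control and 6 toxicant libraries. Values were RPKM, that is a read count divided by gene model length and library size. Libraries were made from poly(A)-selected RNA and sequenced as single reads of 75 bases. The reads recovered behind them numbered 25.0 M to 34.9 M in control and 21.5 M to 28.4 M in toxicant libraries. The part of them on annotated genes, called the on-gene share, was 78.4% in control 2 and 83.1% to 89.5% in the other 4 controls, against 76.8% to 83.8% in toxicant libraries. The summed level of 7 nuclear-retained noncoding RNAs, led by Malat1, was 870 RPKM in control 2 and 141 to 549 RPKM in the other controls, against 342 to 814 RPKM in toxicant libraries. Both measures thus moved with the groups. Control 2 lay inside the toxicant range by on-gene share and above it by the nuclear-retained RNAs, and control 4-5 (83.1% and 549 RPKM) lay inside it on both. Each of the 7 neuronal and 8 dentate granule cell markers examined was past the level filter described next, so the defining markers of the labelled tissue were present.

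All 10 genes passed the filter (0.5 RPKM or more as the average of the 11 libraries, which 13493 genes reached), and none passed the test. By limma on log2(RPKM + 0.5) with Benjamini-Hochberg adjustment, 0 of the 10 were lower and 0 higher at an adjusted p under 0.05, where 0% of all tested genes were lower and 0% higher. The fit on recovered reads (limma voom) also called 0. At an unadjusted p under 0.05, 3 of the 10 were lower (Slc39a12, Slc30a3 and Mtf1) and 0 higher. The background at that threshold was 17.0% of tested genes lower and 3.33% higher. None of the 10 had all toxicant libraries below the lowest control (2.03% of tested genes) or above the highest control (0.111%). By sign, 8 of the 10 were lower, and 70.0% of tested genes were lower. The median log2 fold change was -0.16 over the 10 genes and -0.11 over all tested genes.

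The outcome turned on control 2. Without that library, 4 of the 10 genes passed as lower (Mtf1, Slc30a3, Slc39a12 and Slc39a14) and 1 as higher (Slc39a10), in a fit that called 28.1% of all tested genes lower and 8.56% higher. Median-ratio scaling of the libraries moved the all-gene median from -0.11 to -0.02 and the genes at an unadjusted p under 0.05 from 2288 lower and 449 higher to 708 lower and 1165 higher. It left 7 of the 10 members lower, with a median of -0.06. With the on-gene share added to the model, the 10 genes had a median of -0.02 (all genes -0.03), and 0 of the 10 had an unadjusted p under 0.05.

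**Figure D1:**
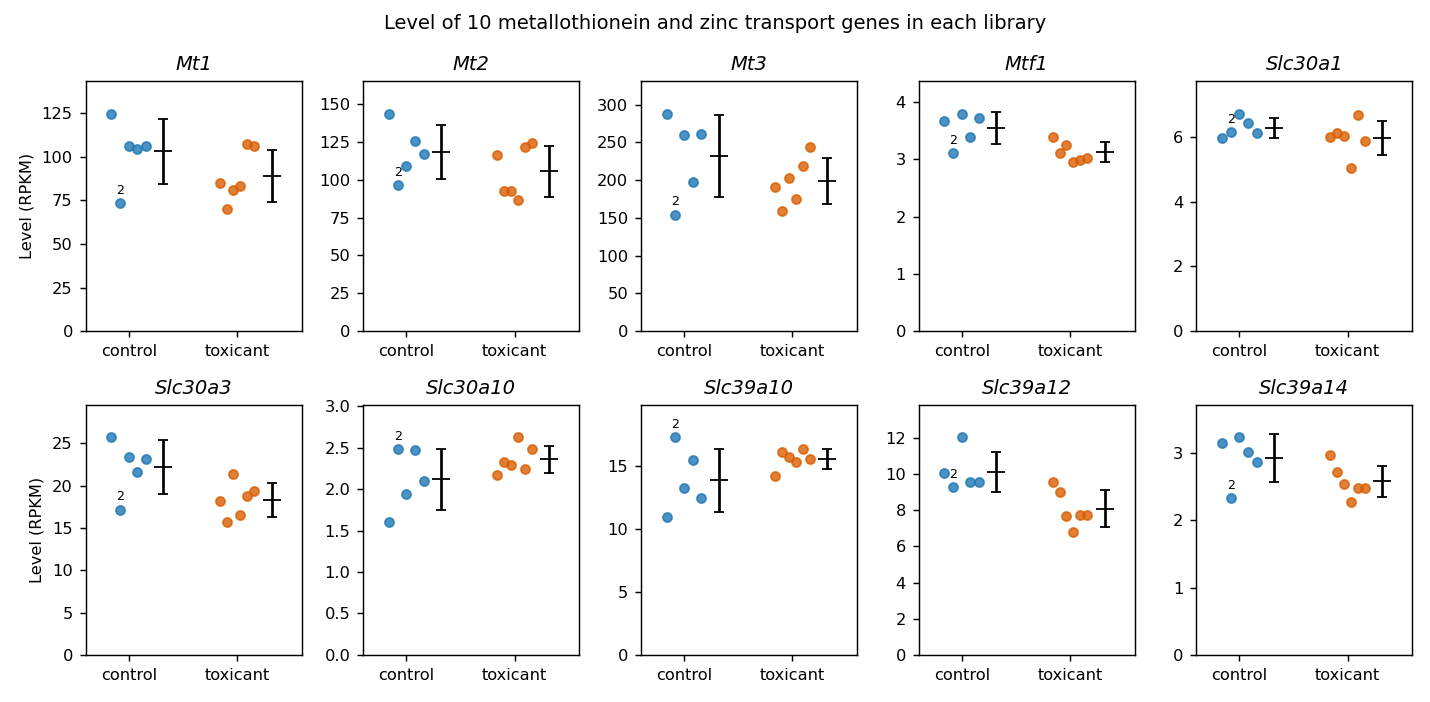
Each panel plots 1 gene, with the level in RPKM on a linear vertical axis from 0, points for the 5 control (blue) and 6 toxicant (orange) libraries, and bars for the mean ± SD. The digit 2 marks control 2, which is the lowest control for Mt1, Mt2, Mt3, Mtf1, Slc30a3, Slc39a12 and Slc39a14 and the highest for Slc30a10 and Slc39a10, and the groups overlap in all panels.

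Mt1 was at 124.6, 73.6, 105.95, 104.2 and 106.3 RPKM in controls 1, 2, 3, 4-5 and 6 and at 84.6, 69.9, 80.8, 83.4, 107.2 and 106.1 RPKM in toxicants 1 to 6. Toxicants 5 and 6 sat with the middle controls, toxicants 1, 3 and 4 lay between them and control 2, and only toxicant 2 was below every control. The means were 102.9 ± 18.4 RPKM (SD, n = 5) and 88.7 ± 14.9 RPKM (SD, n = 6), which is a log2 fold change of -0.21 (SE 0.15, adjusted p = 0.341 by limma) with a 95% interval from -0.53 to 0.10. The value was -0.33 without control 2, -0.14 without control 1 and 0.03 with the on-gene share in the model.

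Mt2 was at 144, 96.8, 109, 126 and 117 RPKM in the controls, in the same order, and at 116, 92.6, 92.3, 86.8, 121 and 124 RPKM in the toxicant libraries. Toxicants 2, 3 and 4 lay below the lowest control, while toxicants 1, 5 and 6 lay inside the control range. Its log2 fold change was -0.17 (SE 0.13, adjusted p = 0.384 by limma, 95% interval -0.45 to 0.11). It was -0.09 without control 1, the highest control, 0.03 with the on-gene share in the model and also 0.03 with quantile normalization. Of the 588 exon bases of Mt2, 432 overlap the antisense gene Gm45774, which was at 0.634 RPKM in controls and 0.548 RPKM in toxicant libraries.

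Mt3, the brain metallothionein, was the most abundant of the 10 genes, ranking 91st by mean RPKM in the table. Its controls were at 288, 155, 260, 197 and 262 RPKM and its toxicant libraries at 191, 160, 203, 175, 219 and 244 RPKM. The toxicant libraries all lay within the wide control range, which ran from control 2 at the bottom to control 1 at the top. For Mt3 the log2 fold change was -0.20 (SE 0.17, adjusted p = 0.401 by limma, 95% interval -0.56 to 0.15), -0.34 without control 2, -0.12 without control 1 and 0.13 with the on-gene share in the model. The 3 metallothioneins were thus lower in mean, by less than the SD of their controls. All 3 signs turned positive with the on-gene share in the model. The SE in that fit was 0.11 for Mt1, 0.11 for Mt2 and 0.09 for Mt3, and all 3 of the 95% intervals held 0. The on-gene share moved with the groups, so that fit cannot tell the mixture and library make-up apart. For Mt3, at means of 232 and 199 RPKM, the difference was below the control SD of 54.8 RPKM but above the toxicant SD of 30.5 RPKM. Mt4, the epithelial metallothionein of the same cluster, was listed at 0 in all libraries.

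Mtf1 encodes the zinc-sensing factor that drives Mt1 and Mt2. It was at 3.67, 3.12, 3.80, 3.40 and 3.72 RPKM in the controls and at 3.40, 3.11, 3.26, 2.95, 3.00 and 3.03 RPKM in the toxicant libraries. Toxicants 2, 4, 5 and 6 were below control 2, the lowest control, and toxicant 1 was level with control 4-5. The log2 fold change was -0.16 (SE 0.07, adjusted p = 0.238 by limma), -0.07 with the on-gene share in the model, and -0.20 (adjusted p = 0.0380, limma) when control 2 was left out. Mtf1 shares 721 of its 8907 exon bases with the opposite-strand gene 1110065P20Rik, which was at 20.03 RPKM in controls and 17.7 RPKM in toxicant libraries. Whether counting used strand is not given in the sources used here, so reads from that stretch cannot be assigned to either gene.

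Among exporters, Slc30a3, which fills synaptic vesicles with zinc, was at 25.7, 17.2, 23.4, 21.6 and 23.2 RPKM in controls and at 18.2, 15.7, 21.4, 16.5, 18.8 and 19.3 RPKM in toxicant libraries. Apart from control 2, each control lay above each toxicant library. The means were 22.2 ± 3.17 RPKM (SD, n = 5) and 18.3 ± 2.04 RPKM (SD, n = 6), which is a log2 fold change of -0.27 (SE 0.11, adjusted p = 0.229 by limma). It was -0.35 (adjusted p = 0.0244, limma) when control 2 was left out and -0.08 with the on-gene share in the model. The neuronal marker list, led by Nrgn, had 5 of 7 genes lower, where 70.0% of all tested genes were lower. Its median was -0.14 (0.03 with the on-gene share in the model), and its summed level was 1160 to 1705 RPKM in controls and 1077 to 1458 RPKM in toxicant libraries. The part of these levels in the Slc30a3 value was not tested. In whole tissue, fewer cells of a type and less RNA per cell cannot be told apart.

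Slc30a1 (ZnT1), the zinc exporter of the plasma membrane and an MTF1 target, was at 5.95, 6.15, 6.72, 6.42 and 6.12 RPKM in controls and 6.00, 6.12, 6.03, 5.04, 6.66 and 5.88 RPKM in toxicant libraries. Its groups overlapped almost fully, with toxicant 4 the lowest. The log2 fold change of -0.07 (SE 0.07, adjusted p = 0.488 by limma) had a 95% interval from -0.23 to 0.09, and it was -0.03 without toxicant 4 and 0.03 after median-ratio scaling. Slc30a1 was the member with the steadiest level in controls, with an SD of 0.06 on the log2 scale, where that of Mt3 was 0.37. Of its 5244 exon bases 468 overlap the antisense gene 1700034H15Rik, which was at 0.231 and 0.219 RPKM in the 2 groups.

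Slc30a10, an exporter of manganese, was at 1.61, 2.48, 1.94, 2.47 and 2.10 RPKM in controls and 2.18, 2.33, 2.29, 2.63, 2.25 and 2.49 RPKM in toxicant libraries. The toxicant libraries lay in the upper part of the control range, and toxicants 4 and 6 were above it. Its fitted log2 fold change was 0.14 (SE 0.10, adjusted p = 0.346 by limma), 0.06 without control 1, the lowest control, and -0.02 with the on-gene share in the model. It shares 533 of its 5836 exon bases with the opposite-strand Gm2061, at 0.981 and 1.01 RPKM in the 2 groups.

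Among importers, Slc39a12 (ZIP12), a zinc importer of the brain, had the smallest unadjusted p of the 10 genes. Controls were at 10.05, 9.31, 12.0, 9.55 and 9.57 RPKM and toxicant libraries at 9.57, 9.02, 7.66, 6.78, 7.76 and 7.74 RPKM. Of the 6 toxicant libraries 5 lay below the lowest control, and toxicant 1 lay above controls 2 and 4-5. The means were 10.1 ± 1.11 RPKM (SD, n = 5) and 8.09 ± 1.02 RPKM (SD, n = 6), which is a log2 fold change of -0.31 (SE 0.10, unadjusted p = 0.00768, adjusted p = 0.207 by limma) with a 95% interval from -0.52 to -0.10. It was smaller in size with the on-gene share in the model, at -0.21 (unadjusted p = 0.0523, limma), and with median-ratio scaling, at -0.20, and was -0.33 (adjusted p = 0.0305, limma) when control 2 was left out.

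Values of cell type markers stood beside those of Slc39a12 and of Mt1 and Mt2. Of 14 astrocyte markers, led by Aldoc, 10 were lower (median log2 fold change -0.15), where 70.0% of all tested genes were lower (median -0.11). The summed level of the astrocyte markers was 559 to 623 RPKM in controls and 509 to 586 RPKM in toxicant libraries. Of 8 choroid plexus markers, 8 were lower with a median of -0.51. With the on-gene share in the model 11 of the 14 astrocyte markers were lower (median -0.07). In that fit 8 of 8 choroid plexus markers were lower (median -0.36), and the all-gene median was -0.03. Ttr, the choroid plexus transthyretin gene, was at 2836 RPKM in control 3, 629 RPKM in control 4-5 and 1764 RPKM in toxicant 2, and between 12.9 and 99.1 RPKM in the other 8 libraries. Control 3 was also the highest library for Slc39a12, and toxicant 2 was the second highest of the toxicant libraries, below every control. Without control 3 the log2 fold change of Slc39a12 was -0.24 (limma adjusted p = 0.494). No marker of either list was at 0 throughout, and their part in the result was not tested.

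Slc39a10 (ZIP10), an importer of the plasma membrane, had the higher mean in the toxicant group. Controls were at 10.96, 17.3, 13.2, 15.4 and 12.4 RPKM and toxicant libraries at 14.2, 16.1, 15.7, 15.3, 16.4 and 15.5 RPKM. The toxicant libraries were close together inside a wide control range, with an SD on the log2 scale of 0.07 against 0.25 in controls. A log2 fold change of 0.18 was fitted (SE 0.10, adjusted p = 0.295 by limma). It was 0.26 (adjusted p = 0.0418, limma) when control 2 was left out, 0.098 (adjusted p = 0.605, limma) when control 1 was, 0.28 with median-ratio scaling and -0.0012 with the on-gene share in the model.

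Slc39a14 (ZIP14), which imports manganese and iron as well as zinc, was at 3.15, 2.34, 3.23, 3.02 and 2.87 RPKM in controls and 2.97, 2.72, 2.54, 2.28, 2.49 and 2.48 RPKM in toxicant libraries. Control 2 lay among the toxicant libraries, and toxicant 1 lay among the other controls. Its fitted log2 fold change was -0.15 (SE 0.09, adjusted p = 0.286 by limma), -0.02 with the on-gene share in the model and -0.22 (adjusted p = 0.0425, limma) when control 2 was left out. The 2 manganese transporters thus differed in sign, with neither past the test, and the sign for Slc30a10 turned when the on-gene share was in the model.

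**Figure D2:**
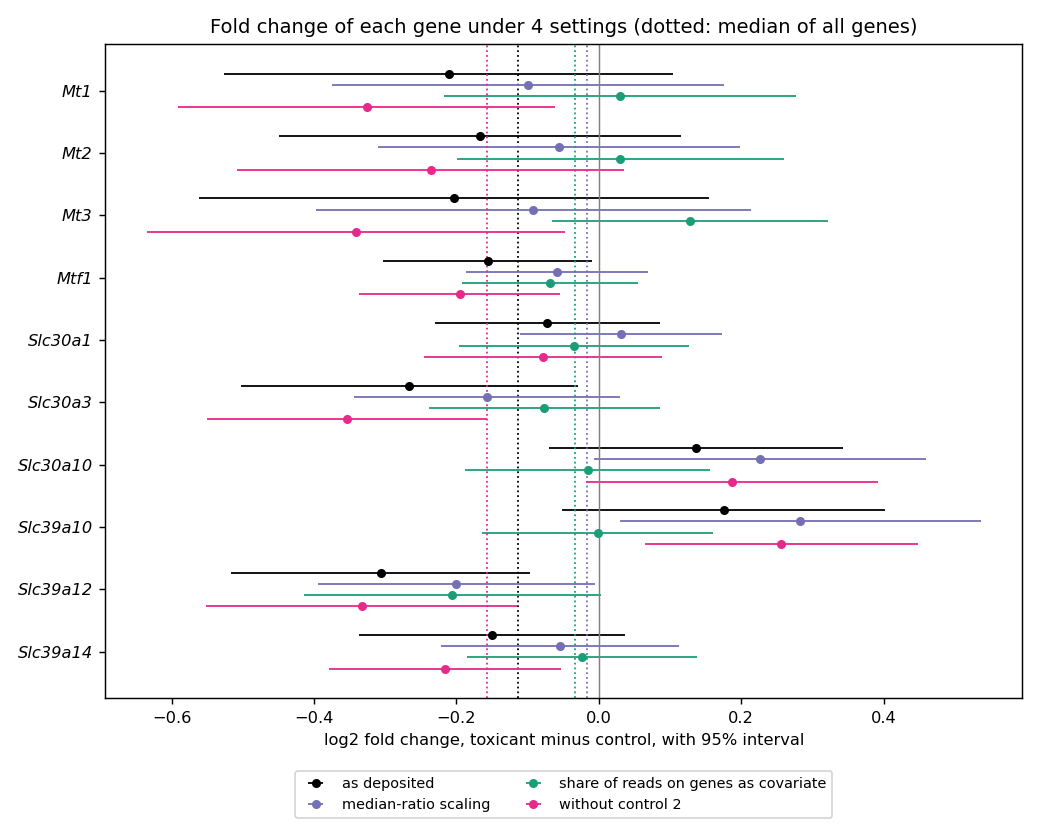
Points give the log2 fold change of each gene (horizontal axis, toxicant minus control) with its 95% interval from limma, for the values as deposited (black), after median-ratio scaling (purple), with the on-gene share in the model (green) and without control 2 (pink). Dotted lines mark the median of all tested genes in the same setting, from -0.16 without control 2 to -0.02 with median-ratio scaling, and as deposited only the intervals of Mtf1, Slc30a3 and Slc39a12 leave out 0.

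The levels of most members, but not of all, differed between the libraries of lowest and of highest on-gene share. In the 4 libraries of lowest share (toxicant 4, control 2, toxicant 2 and toxicant 3), Mt1, Mt2, Mt3, Mtf1 and Slc39a14 were each below their own mean over the 11 libraries in 4 of 4. Slc30a10 and Slc39a10 were below it in 0 of these 4. In the 3 libraries of highest share (controls 1, 3 and 6), Mt1, Mt3, Mtf1, Slc30a3, Slc39a12 and Slc39a14 were above their mean in 3 of 3, and Slc30a10 and Slc39a10 in 0 of 3. Slc30a3 was below its mean in 3 of the 4 libraries of lowest share and Slc39a12 in 2 of the 4, and Mt2 was above its mean in 2 of the 3 of highest share. Slc30a1 was below its mean in 2 of the 4 and above it in 2 of the 3. The libraries between did not follow the order throughout. On the log2 scale, toxicant 1 (83.8%) deviated by -0.15 for Mt1 and -0.14 for Mt3, and toxicant 5 (81.7%) by 0.19 and 0.07. The share of all tested genes with the same patterns was not counted.

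**Figure D3:**
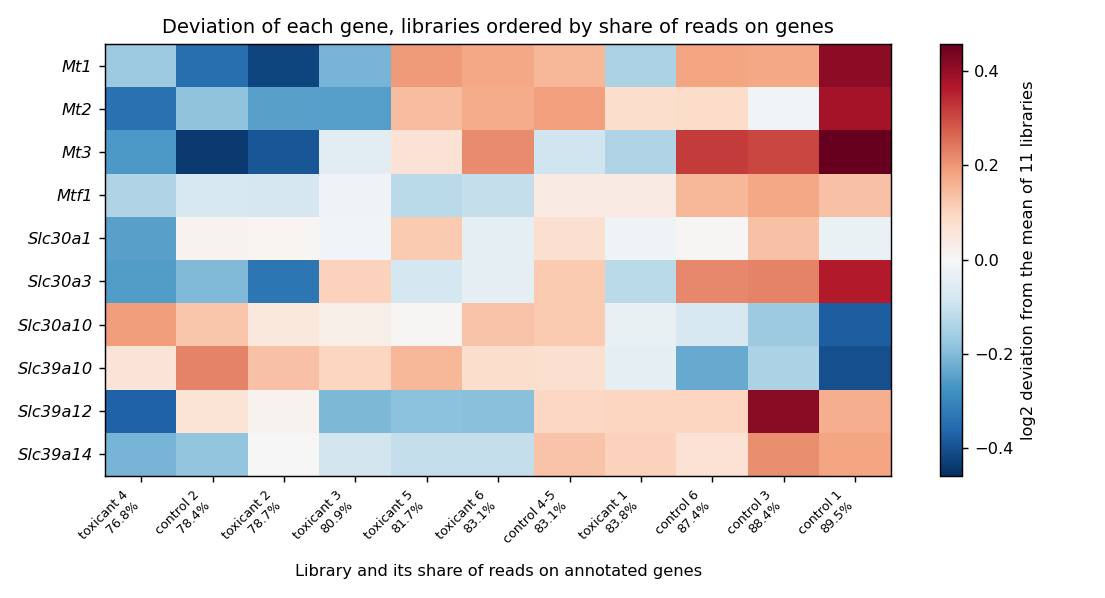
Rows are the 10 genes and columns the 11 libraries, ordered from the lowest (toxicant 4, 76.8%) to the highest (control 1, 89.5%) share of reads on genes. Colour gives the deviation of log2(RPKM + 0.5) from the mean of the gene over all libraries. From the lowest to the highest end, Slc30a10 and Slc39a10 go from red to blue where the metallothioneins mostly go from blue to red, with exceptions between the ends.

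The 3 metallothioneins varied together among animals. On log2(RPKM + 0.5), Mt1 and Mt3 correlated at Pearson's r = 0.91 (permutation test over 11 libraries, two-sided p = 0.00012, adjusted over 3 pairs 0.00036) with Spearman's rho = 0.87 (adjusted permutation p = 0.0029). For Mt1 and Mt2, r was 0.86 (p = 0.0011, adjusted permutation p = 0.0017) and rho 0.78 (adjusted permutation p = 0.010). For Mt2 and Mt3, r was 0.73 (p = 0.014, adjusted permutation p = 0.014) and rho 0.61 (adjusted permutation p = 0.053). Without the 2 libraries farthest from the median of the first gene, r was 0.83, 0.84 and 0.76 for the pairs in that order. After subtraction of each group's mean, r was 0.89, 0.83 and 0.68. The relation of Mt2 with Mt3 was the weaker one, at r = 0.57 after median-ratio scaling (adjusted permutation p = 0.070) and 0.62 without control 1 (adjusted permutation p = 0.061). These libraries also share their position on the scale of reads on genes given above. The p-values are against an r of 0, whereas the median r over all tested genes was 0.50 with Mt3, 0.44 with Mt1 and 0.36 with Mt2. They therefore do not set the metallothioneins apart from other genes. The relation with the on-gene share removed was not tested.

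**Figure D4:**
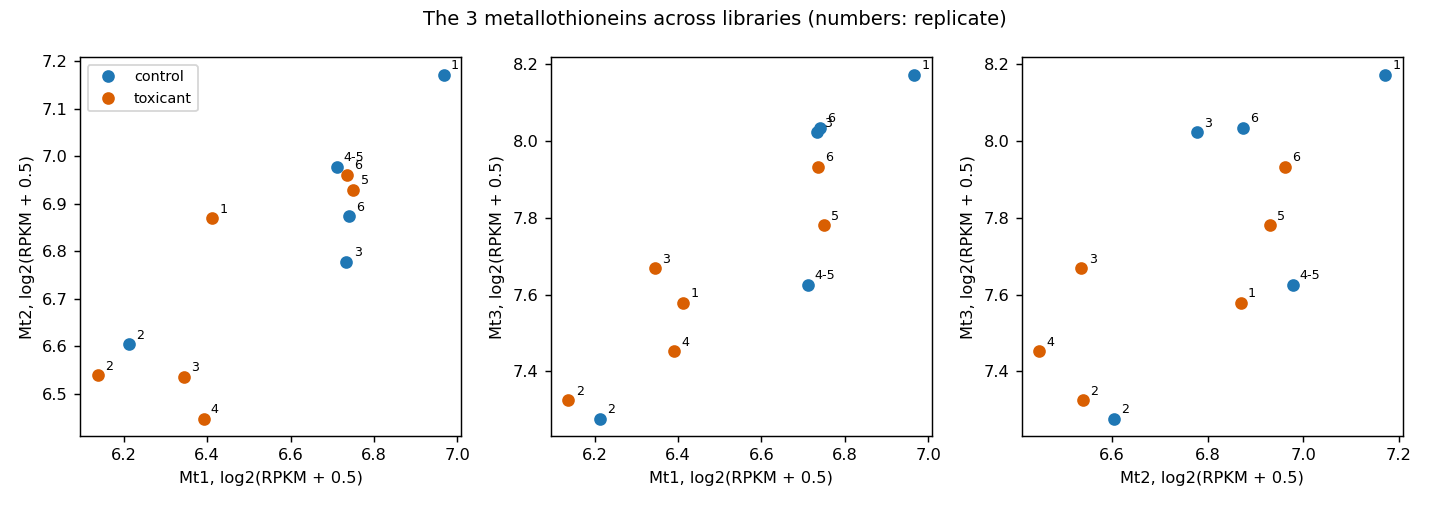
Each panel plots 2 metallothioneins against each other as log2(RPKM + 0.5), with 1 point per library (blue control, orange toxicant) and its replicate number. Control 1 is at the top right and control 2 near the bottom left in all panels, and the 2 groups are mixed along the diagonal.

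The balance of the metallothioneins within a library was compared as ratios. The ratio of Mt1 to Mt2 RPKM was 0.868 ± 0.0793 (SD, n = 5) in controls and 0.842 ± 0.0871 (SD, n = 6) in toxicant libraries. The ratio of Mt1 plus Mt2 to Mt3 was 0.976 ± 0.151 (SD, n = 5) and 0.981 ± 0.0751 (SD, n = 6). In each case the difference of means was smaller than either SD.

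The genes closest in pattern to each metallothionein, by Pearson's r over the 11 libraries, are given as a description. Those closest to Mt3 were Tomm6 (r = 0.994), a subunit of the mitochondrial protein import pore, Pop5 (0.993), a subunit of RNase P, and the phosphohistidine phosphatase Phpt1 (0.993). Closest to Mt1 were Nat8f1 (0.964), Taf1c (0.956), a factor of ribosomal RNA transcription, and Timm8b (0.954), a chaperone of mitochondrial import. Closest to Mt2 were the serotonin receptor gene Htr5a (0.933), Ripply2 (0.924) and Fam107a (0.909). The median r over all tested genes was 0.50 with Mt3, 0.44 with Mt1 and 0.36 with Mt2.

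By level per length in controls, the order was Mt3 (232 ± 54.8 RPKM, SD, n = 5), Mt2 (118 ± 17.6), Mt1 (102.9 ± 18.4), Slc30a3 (22.2 ± 3.17), Slc39a10 (13.9 ± 2.49), Slc39a12 (10.1 ± 1.11), Slc30a1 (6.27 ± 0.301), Mtf1 (3.54 ± 0.281), Slc39a14 (2.92 ± 0.354) and Slc30a10 (2.12 ± 0.372). The ranges of neighbours overlapped for Mt2 with Mt1, Slc30a3 with Slc39a10, Slc39a10 with Slc39a12, Mtf1 with Slc39a14 and Slc39a14 with Slc30a10. The other neighbours were apart in the controls. Within each of the 11 libraries Mt3 was above Mt2 and Mt2 above Mt1. The place of Mt1 rests on its gene model: RPKM matched whole reads over all 1246 exon bases of the gene, whereas the transcript that GENCODE numbers first is 549 bases long, against 588 and 511 for Mt2. Per length of that transcript Mt1 would be at 234 and Mt2 at 136 RPKM in controls, and Slc39a14, with 10550 exon bases and a transcript of 2098, at 14.7 RPKM. Which transcripts were expressed was not tested. The toxicant means stood in the same order as the control means.

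The Slc30 and Slc39 families as a whole held 24 genes in the table, 20 of them past the filter and 6 of these among the members. Of the 6 other tested Slc30 genes 4 were lower, where 70.0% of all tested genes were lower. Their median log2 fold change was -0.09 (0.0099 after median-ratio scaling), and 0 passed over all genes tested. With the on-gene share in the model 6 of these 6 were lower, with a median of -0.09. In that fit 8258 of all 13493 tested genes were lower, with a median of -0.03. Slc30a6, a Golgi zinc transporter, was at 2.91 ± 0.234 RPKM (SD, n = 5) and 2.26 ± 0.151 RPKM (SD, n = 6), with all 6 toxicant libraries below the lowest control and a log2 fold change of -0.30 (SE 0.07, adjusted p = 0.169 by limma). Its partner Slc30a5 differed by -0.10 ± 0.07 on the log2 scale (± SE from here on for log2 differences, adjusted p = 0.327, limma) and Slc30a2 by -0.21 ± 0.11 (adjusted p = 0.257, limma). For Slc30a6 the log2 fold change was -0.24 with the on-gene share in the model (adjusted p = 0.248, limma). After median-ratio scaling it was -0.21 (adjusted p = 0.351, limma). Slc30a8, the exporter of pancreatic beta cells, was under the filter.

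Of the 8 other tested Slc39 genes 7 were lower (70.0% of all tested genes), with a median of -0.22, and 0 passed. Slc39a6 averaged 12.2 ± 1.35 RPKM (SD) in controls and 10.2 ± 0.696 RPKM in toxicant libraries, a log2 difference of -0.24 ± 0.08 (adjusted p = 0.216, limma), and 4 of 6 toxicant libraries were under the control range. Slc39a9 averaged 4.01 ± 0.506 and 3.32 ± 0.334 RPKM, a log2 difference of -0.24 ± 0.09 (adjusted p = 0.223, limma), with 5 of 6 below. For Slc39a13 this difference was -0.21 ± 0.10. With the on-gene share in the model these 8 had a median of -0.03, and 4 of 8 were lower. Without control 2, 4 of these 8 and 2 of the 6 other Slc30 genes passed as lower, in the fit that called 28.1% of all tested genes lower.

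**Figure D5:**
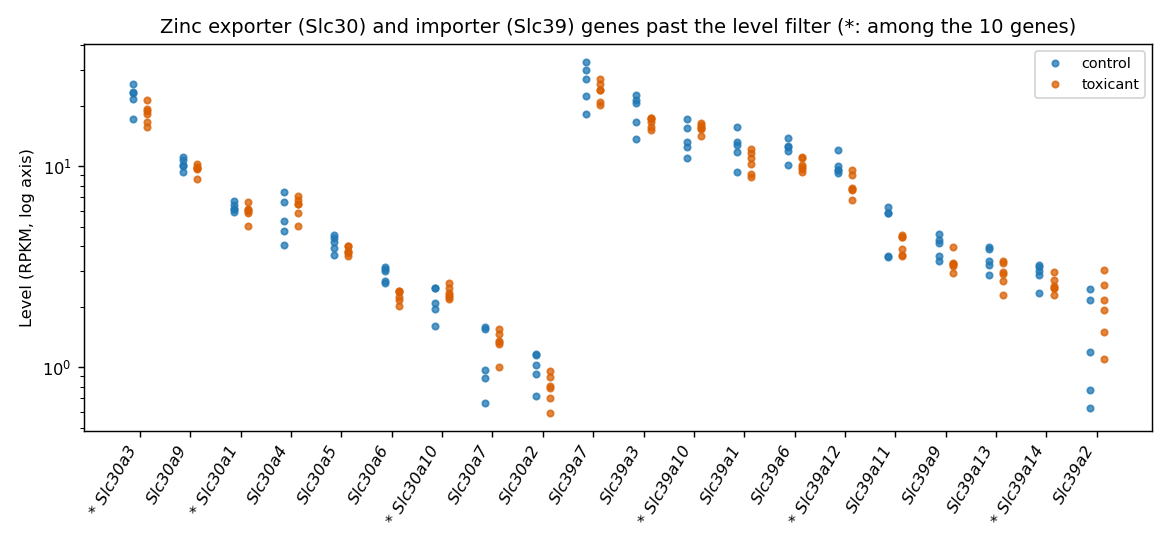
Points give the RPKM of each library on a log axis for the 20 Slc30 and Slc39 genes past the filter, ordered by mean level within each family (blue control, orange toxicant, asterisks for the members). Slc30a3 is the highest exporter, Slc39a10 the third of the importers, and only for Slc30a6 do the 2 groups stand apart.

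Genes of other metals and of the stimuli that induce Mt1 and Mt2 gave the setting, with 0 past the test over all genes in each list. Of 9 tested copper genes 8 were lower (median -0.17, and 0.04 with the on-gene share in the model). Those with the smallest p were the superoxide dismutase Sod1, the chaperone Atox1 and the mitochondrial copper carrier Cox17, with log2 fold changes of -0.22 ± 0.11, -0.26 ± 0.16 and -0.15 ± 0.09. Of 16 iron and manganese genes 13 were lower (median -0.15), 6 of them at an unadjusted p under 0.05. Of all tested genes, 70.0% were lower and 17.0% lower at that p. With the on-gene share in the model 15 of the 16 were lower (median -0.11), 4 of them at that p. In that fit 8258 of all 13493 tested genes were lower (median -0.03), 1232 of them at that p. After median-ratio scaling 10 of the 16 were lower, with a median of -0.05 (-0.02 over all tested genes). Trf (transferrin, made by oligodendrocytes in brain) was at 57.3 ± 12.1 RPKM (SD, n = 5) for controls and 39.9 ± 4.72 RPKM (SD, n = 6) for the toxicant group, a difference of -0.50 ± 0.14 on the log2 scale. That of Fth1, the heavy subunit of ferritin, was -0.38 ± 0.11 and that of Tmem165, a Golgi manganese transporter, -0.24 ± 0.09. With the on-gene share in the model the differences of Trf, Fth1 and Tmem165 were -0.28 ± 0.11, -0.19 ± 0.06 and -0.09 ± 0.05. Oligodendrocyte markers, led by Mbp, had 7 of 8 genes lower and a median of -0.51. With the on-gene share in the model 8 of 8 were lower, with a median of -0.33. The part of these markers in the Trf value was not tested.

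The counts of lower genes that follow stand beside 70.0% lower over all tested genes. Of 15 glucocorticoid-induced genes 9 were lower and 6 higher (median -0.03). The median turned to 0.02 with the on-gene share in the model and 0.05 after median-ratio scaling. At an unadjusted p under 0.05, 6 of the 15 were lower and 1 higher (17.0% and 3.33% of all tested genes). With the on-gene share in the model 2 were lower and 2 higher at that p (1232 and 586 of all 13493 tested genes). Without control 2, 6 passed as lower and 1 as higher (28.1% and 8.56% of all tested genes). On the log2 scale, Dusp1, a phosphatase of MAP kinases, differed by -0.53 ± 0.13, the NF-kB inhibitor Nfkbia by -0.45 ± 0.13 and the lipid droplet gene Plin4 by 0.44 ± 0.14. Of 9 oxidative stress genes 7 were lower (median -0.12), with the glutathione reductase Gsr at -0.28 ± 0.11, the glutamate-cysteine ligase Gclc at -0.12 ± 0.07 and the cystine importer Slc7a11 at 0.31 ± 0.17. Among 9 genes of the AP-3 adaptor and vesicular partners of Slc30a3, 5 were lower (median -0.14), with Ap3d1, Ap3m2 and Ap3s2 at -0.22 ± 0.10, -0.24 ± 0.12 and -0.20 ± 0.11. The limma adjusted p of the genes named from these 5 lists ran from 0.170 for Dusp1 to 0.302 for Cox17. Dentate granule markers, led by C1ql3, had 5 of 8 genes lower and a median of -0.14. With the on-gene share in the model 6 of these 8 were lower, with a median of -0.21.

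Other cell types that whole hippocampus holds were read the same way, beside the 70.0% of all tested genes that were lower. Endothelial markers, led by Slc2a1, were lower in 7 of 8 genes (median -0.32), fibroblast markers, led by Igf2, in 4 of 5 (median -0.18) and red cell genes, led by Hba-a2, in 4 of 4 (median -0.45). Summed levels in controls and toxicant libraries were 58.9 to 68.4 and 49.6 to 54.8 RPKM for endothelium and 97.1 to 143 and 70.9 to 101.6 RPKM for red cells. The 7 nuclear-retained RNAs were all higher (median 0.29), but 6 of 7 were lower with the on-gene share in the model (median -0.21). Their part in the values of the 10 genes was not tested.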

How the data were processed

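Hippocampal RNA of 6 control and 6 toxicant mice was measured by RNA-seq, 12 columns in all. The RPKM values were made and deposited by the authors, per the file headers. The aligner, the build and the annotation they used: not given in the sources used here. Reads were recovered from the RPKM steps with GENCODE M21 exon lengths (41675 of 41743 genes found), and 98.4% to 98.6% of values in each library were whole within 0.05 read. The members had median reads of 331 (Slc30a10) to 5692 (Mt3) per library. For Slc30a10 the recovered reads were not whole, so they are approximate. No stretch of 75 bases of the members' transcripts occurred in the same orientation in a transcript of another gene. That search did not cover the opposite strand, where Mt2, Mtf1, Slc30a1 and Slc30a10 overlap other genes as given above.

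limma 3.58.1 (R 4.3.3) was fitted to log2(RPKM + 0.5) for genes with a mean of 0.5 RPKM or more, with a variance trend, 9 residual degrees of freedom and Benjamini-Hochberg adjustment over 13493 genes (threshold 0.05, two-sided). Identical columns counted once. The pseudocount understates the change of low genes. Correlations used 100000 permutations. The fit was also run on simulated data with known changes and noise independent between genes. Variation that genes share across libraries was not simulated, so that run does not bear on it. Alternatives were other pseudocounts, filters, scalings, a covariate, voom on recovered reads, a replicate block and leaving out each library.

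The members and lists were chosen with earlier results of these data known. All members were named, with the 3 genes of smallest p from each pathway list, the most abundant gene of each marker list and the 3 genes most similar to each metallothionein, leaving out predicted genes and pseudogenes. Lists of markers covered astrocytes, neurons, dentate granule cells, oligodendrocytes, endothelium, fibroblasts, choroid plexus, red cells and nuclear-retained RNA. The result of 1 further marker list is not reported here.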

Additional observations from a re-analysis of the deposited data

How the results depend on the processing

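Counts of genes past the limma threshold were 0 lower and 0 higher, except 9 lower with all 12 columns, 1 higher with a pseudocount of 0.1 RPKM, and the fit without control 2. Leaving out 1 library at a time gave 0 to 3779 genes lower and 0 to 1153 higher, and 0 to 4 of the 10 members lower and 0 to 1 higher, with all values above 0 coming from the fit without control 2. At an unadjusted p under 0.05 these fits held 1158 (without control 3) to 5386 (without control 2) genes lower and 151 (without control 1) to 1721 (without control 2) higher. That split was 1173 lower and 850 higher after quantile normalization, 1232 and 586 with the on-gene share in the model, 708 and 1165 after median-ratio scaling, and 2772 and 732 with no filter. With the on-gene share in the model the log2 fold change turned to 0.029 for Mt1, 0.030 for Mt2, 0.13 for Mt3, -0.016 for Slc30a10 and -0.0012 for Slc39a10. Quantile normalization gave 0.029 for Mt2 and median-ratio scaling 0.031 for Slc30a1. The cause was not tested. The r of Mt2 with Mt3 was 0.57 after median-ratio scaling and 0.62 (without control 1) to 0.79 when single libraries were left out. With the replicate number as a block, in which toxicant 5 had no partner and carried no weight, 0 genes passed, 3600 were lower and 1064 higher at an unadjusted p under 0.05, and Mt1 was at -0.27. Of the 10 members, 4 then had an unadjusted p under 0.05 in limma (against 3 without the block): Mt1 and Mt3 came under that threshold and Mtf1 went over it. Deviations of same-numbered libraries correlated at 0.62 (replicate 1), 0.28 (replicate 2), -0.30 (replicate 3), 0.32 (control 4-5 with toxicant 4) and 0.27 (replicate 6). Those of different-numbered libraries correlated between -0.65 and 0.50. The labels do not say that equal numbers are pairs, and the main fit did not take them as pairs.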

Other observations

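Among the 45 pairs of the 10 genes, those outside the metallothioneins with the highest Pearson's r over the 11 libraries were Mtf1 with Slc39a14 (0.88), Slc30a3 with Mt3 (0.87), Slc30a10 with Slc39a10 (0.86) and Slc39a12 with Slc39a14 (0.84). The lowest r were those of Slc39a10 with Mtf1 (-0.82) and with Mt3 (-0.79). These pairs were chosen after their values were seen, share the on-gene share of their libraries, and are given as a description.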
